A study of Sus scrofa with 6 samples.

Results

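The developmental transcription factors of the embryonic pig cerebral cortex were described here on the Affymetrix Pig Genome Array, for cortex collected after and before the folds of the cortical surface appear. A probe set, the group of short probes that reads 1 transcript, was counted as a member when its annotation held exactly 1 gene symbol and that symbol belonged to a fixed list of transcription factor families. The list covers the SOX, PAX, POU, LHX, DLX, MEIS, PBX, KLF, NEUROD, NEUROG, HES, HEY, ID, NFI, MEF2, TFAP2, FOX, ZEB, ZIC, EMX, OTX, BEND, BCL11, SATB, CUX, ETV, BHLH, TCF and LEF1 names, the nuclear receptors, and EOMES and TBR1. By this rule 123 of the 23999 probe sets tested were members, and they read 75 of the 6765 genes with such a symbol. Total RNA came from the cortex of 3 pig embryos at embryonic day 80 (E80, when the primary folds are present) and of 3 embryos at embryonic day 60 (E60, when the surface is smooth), with 1 array per embryo. The values of a day are given in the order of its arrays, which are numbered 4 to 6 at E80 and 1 to 3 at E60. The labels name no treatment and give neither sex nor strain nor the cortical region sampled. The embryos of a day are described as litter mates, so that litter and day cannot be told apart.

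Transcription factors bind DNA at promoters and enhancers and set which genes a cell reads, and many of these families are known for ordering the steps of cortical development. In the ventricular zone, HES, ID and SOX proteins keep radial glia dividing, proneural factors such as those of the NEUROD family start neuronal differentiation, and CUX, SATB, BCL11 and nuclear receptor genes mark neuronal classes and layers. NFI and SOX genes then take part in the switch to glia, while homeobox genes of the DLX and MEIS families are best known from the ventral forebrain, the source of cortical interneurons and striatal neurons.

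Signals were deposited as MAS5 values, an arbitrary linear unit of brightness, scaled so that the mean of the middle signals of every array is 150.02. The rank correlation between arrays over the members was 0.921 to 0.969, against 0.964 to 0.984 over all probe sets. Of the cell type marker genes checked, astrocyte genes had a summed signal of 3785 to 5152 at E80 and 2670 to 2968 at E60 (9 of 10 measured). E80 array 6 stood apart with a summed choroid plexus signal of 6006 (6 of 11 measured). It was 389.7 and 689.5 on the other E80 arrays and 531.2 to 565.4 at E60. IGF2, with 278 to 540 over all arrays, made most of the sum elsewhere, and PRLR was near the floor on every array. TTR alone had 4475 on E80 array 6, against at most 15.07 on any other. AQP1, ENPP2 and FOLR1 were also highest on E80 array 6. The same array had the highest summed signal of microglial genes, 613 against 158.9 to 243.5 on the other 5 arrays, and of oligodendrocyte lineage genes, 1752 against 786.2 to 1258. Interneuron genes were present on every array, with a summed signal of 3059 to 3939 at E80 and 2898 to 3590 at E60 (6 of 11 measured). None of the 9 markers listed for cortical excitatory neurons had a probe set with a symbol of its own, so that this class was not checked. PAX6, SOX2, EOMES, TBR1 and EMX1 are in the same position and are not analysed here.

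Of the 123 member probe sets, 1 was past the test at E80 against E60, that of BEND6, which was 2.69-fold higher at E80. This is 0.813% of the members in the higher direction, against 0.933% of all probe sets called higher (224 of 23999), and no member was called lower, against 1.01% of all probe sets (243). In either direction 1.95% of all probe sets were called, with limma's moderated test and Benjamini-Hochberg adjustment over the whole array. At an unadjusted p under 0.05 there were 21 member probe sets (17.1%), against a background of 18%. Of these, 9 had the higher mean at E80 (7.32% of members, background 7.12%) and 12 the lower mean (9.76% of members, background 10.8%). The 2 days did not overlap, meaning that every array of one day lay above every array of the other, for 7 members with higher signals at E80 (5.69%, background 9.25%) and for 14 with lower signals (11.4%, background 14.4%), or 21 in all against a background of 23.6%. The share of members past each of these marks was thus near or under that of the array as a whole. The mean was higher at E80 for 55 members and lower for 68 (55.3%, against 55.7% of all probe sets). The median log2 difference, E80 minus E60, was -0.07 over the members and -0.05 over all probe sets, and with every array set to a common median it was 0.04 over the members and 0.06 over all probe sets.

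Signal level differed widely among the members. Of the 123 probe sets, 50 had a mean log2 signal above the median of the array and 73 did not. A mean difference of at least 2-fold was found for 16 members (13%, against 7.56% of all probe sets). Of these 16, 12 were at or below the median signal, where the arrays of a day lie further apart. Over all probe sets the same held for 1628 of 1814, a larger share. Above the median signal, such differences were those of BEND6, NR4A2 and the brighter probe sets of KLF9 and MEIS1. Except for NR4A2, these are genes that the study selected on the same arrays. The median standard error of the log2 difference was 0.18 for members above the median signal and 0.46 for those at or below it.

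**Figure D1:**
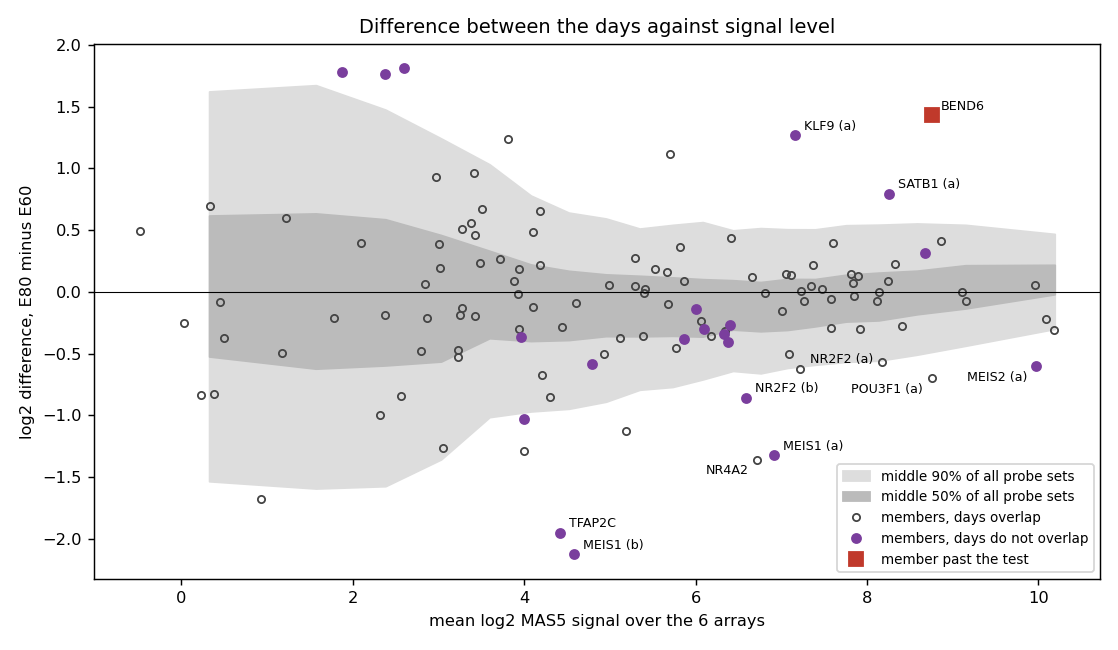
Each point is 1 of the 123 member probe sets, with its mean log2 MAS5 signal over the 6 arrays on the x axis and its log2 difference (E80 minus E60) on the y axis; the grey bands hold the middle 50% and 90% of all 23999 probe sets at the same signal, and (a) and (b) number the probe sets of a gene from bright to dim. BEND6, the red square at 1.43, is the member past the test, and KLF9 (a), SATB1 (a), MEIS1 (a), NR4A2 and TFAP2C are among those that lie outside the wide band without passing it.

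BEND6 was bright and varied less within a day than between the days, and its probe set is one the study selected on the same arrays. It encodes a BEN domain protein that in mouse neural progenitors binds the Notch effector RBPJ and opposes Notch signalling. Its signal was 799.5, 663.7 and 677.9 at E80 and 326.5, 217.7 and 259.1 at E60, so that the lowest E80 array was above the highest E60 array by more than the whole range within either day. The mean was 713.7 ± 74.6 at E80 and 267.7 ± 54.9 at E60 (SD, n = 3 each), and the log2 difference was 1.43 ± 0.15 (SE, 95% confidence interval 1.07 to 1.79, adjusted p = 0.0159). Its mean signal was above that of 89.3% of the probe sets. The difference was 1.29 to 1.58 whichever array was left out, but the adjusted p was 0.061 without E60 array 1, 0.0903 without E60 array 2 and 0.0788 without E80 array 4. Since whole cortex was measured, more cells of a type and more RNA per cell cannot be told apart for BEND6 or for any other gene named here.

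The Krüppel-like factors (KLF) were read by 10 probe sets of 8 genes, and KLF9 had the widest difference among them. KLF9 is induced by thyroid hormone and glucocorticoids and is known from mouse for its part in the maturation of neurons and oligodendrocytes. The brighter of its 2 probe sets had signals of 193.4, 367.8 and 152.9 at E80 and of 76.23, 82.69 and 123.9 at E60. No E80 array overlapped with E60, although E80 array 5 was far above the other E80 arrays. The study selected KLF9, as BTEB1, on these same arrays, so that the lack of overlap is no independent evidence. The log2 difference was 1.27 ± 0.32 (SE, 95% confidence interval 0.53 to 2.01, adjusted p = 0.0904), and it was 0.90 without E80 array 5. With arrays weighted by their quality, a setting chosen after the data were seen, the adjusted p was 0.0366. The dimmer KLF9 probe set had signals of 13.84 to 20.12 at E80 and 12.5 to 17.05 at E60, which overlap (log2 difference 0.18, adjusted p = 0.809, and 0.038 without E80 array 5). The annotation gives the 2 probe sets different gene identifiers, so that they may not read the same transcript. Among the other members of the family, KLF13, a repressor of GC-rich promoters, averaged 352.3 at E80 and 299.1 at E60, and KLF10, a TGF-beta response gene, averaged 150.1 at E80 and 158.2 at E60, and both overlapped. KLF11, related to KLF10, had signals of 57.79 to 70.37 at E80 and 74.04 to 79.72 at E60 on its brighter probe set, a small difference of -0.30 without overlap (adjusted p = 0.374). KLF15, a metabolic regulator and glucocorticoid target, had 58.55 to 63.16 at E80 and 63.46 to 75.55 at E60, with an adjusted p of 0.713. KLF4, known as a pluripotency and immediate early gene, and KLF2, known from endothelium, overlapped between the days.

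All 6 probe sets of the TALE homeobox genes MEIS1, MEIS2 and PBX2 had the lower mean at E80, under the deposited scaling and under both alternative scalings, and none passed the test. MEIS proteins bind DNA together with PBX proteins, and in mouse MEIS2 is strongly expressed in the progenitors and neurons of the striatum and in ventral interneuron lineages. The brighter MEIS1 probe set had signals of 114, 41.8 and 93.13 at E80 and of 300.7, 127.6 and 181.7 at E60. The dimmer one had 19.5, 3.422 and 22.49 at E80 and 76.86, 31.18 and 52.09 at E60. On both, every E80 array was below every E60 array, and the order of the arrays within each day differed only between E80 arrays 4 and 6. The study selected MEIS1 on these same arrays for a consistent change, so that this separation is no independent evidence. Both probe sets were read from the same RNA, so that their agreement is no replication. The log2 difference was -1.32 ± 0.41 (SE, 95% confidence interval -2.27 to -0.37, adjusted p = 0.144) for the brighter probe set and -2.13 ± 0.71 (SE, 95% confidence interval -3.75 to -0.51, adjusted p = 0.165) for the dimmer one. Without E80 array 5 these were -0.89 and -1.25.

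MEIS2 was the brightest of these genes. Its brighter probe set, above 96.8% of the array, had signals of 976, 535.5 and 1041 at E80 and of 1563, 1135 and 1076 at E60. The days did not overlap, but E80 array 6 and E60 array 3 differed by little. The log2 difference was -0.60 ± 0.25 (SE, adjusted p = 0.263), and -0.30 without E80 array 5. The dimmer MEIS2 probe set had 22.9 to 47.78 at E80 and 36.15 to 68.37 at E60, which overlap. PBX2, a broadly expressed partner of MEIS proteins, averaged 175.1 at E80 and 217.2 at E60 on its brighter probe set, and 65.3 at E80 and 86.38 at E60 on its dimmer one, with overlap on both.

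Within these 6 probe sets the same array was always the lowest. E80 array 5 had the lowest signal of the 6 arrays on all 6, whereas it was the lowest on 12.2% of the members and on 15.3% of all probe sets. E60 array 1 had the highest signal on 4 of the 6, and E60 array 3 on the other 2. The striatal marker genes measured were 3 of 12 (DRD2, RARB and RXRG). Their summed signal was 199.2, 156.7 and 446 at E80 and 792.4, 293 and 546.1 at E60, and none of the 3 was at 0. The order of these sums followed RXRG, the brightest of the 3. RXRG, the retinoid X receptor gamma of striatal and thyroid hormone signalling, had 148.4, 60.51 and 301 at E80 and 630, 200.6 and 354.3 at E60, and like the MEIS and PBX2 probe sets it was lowest on E80 array 5. The other markers were not: DRD2, a dopamine receptor, had 25.09, 31.36 and 104.2 at E80 and 117.5, 57.35 and 153.4 at E60, and RARB, a retinoic acid receptor, had 25.64, 64.8 and 40.75 at E80 and 44.86, 35.12 and 38.38 at E60. The study lists DRD2 and RXRG as lower at E80 on these same arrays, so that their direction is no independent evidence. How far the amount of ventral tissue in each sample bears on the MEIS values was not tested.

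The AP-2 family was read by 3 member probe sets, all at or below the median signal and all with the lower mean at E80 under each scaling. AP-2 alpha, which the study lists as lower at E80 on these arrays, had no probe set with that symbol alone. It is not analysed here. TFAP2C (AP-2 gamma) is known from mouse cortex as a factor of radial glia and basal progenitors. Its signal was 19.79, 16.28 and 4.007 at E80 and 39.95, 36.12 and 51.48 at E60, so that even the lowest E60 array was above the highest E80 array. This separation is no independent evidence, since the study selected TFAP2C on these same arrays. The log2 difference was -1.95 ± 0.57 (SE, 95% confidence interval -3.27 to -0.63, adjusted p = 0.127). It rested in part on E80 array 6, without which it was -1.23, and on the low signal, since with 32 added to every signal it was -0.73. TFAP2B (AP-2 beta), a neural crest and sympathetic lineage factor, had signals of 23.32, 24.54 and 20.53 at E80 and of 37.46, 33.01 and 31.8 at E60 on its brighter probe set. This difference, -0.58 with an adjusted p of 0.237, was without overlap, and the dimmer TFAP2B probe set overlapped (-0.19). Fibroblast and meningeal genes, whose lineage includes neural crest, had a summed signal of 429.6, 847.2 and 332.5 at E80 and 1027, 1291 and 818.6 at E60 (4 of 12 measured), and their part in the AP-2 values was not tested.

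**Figure D2:**
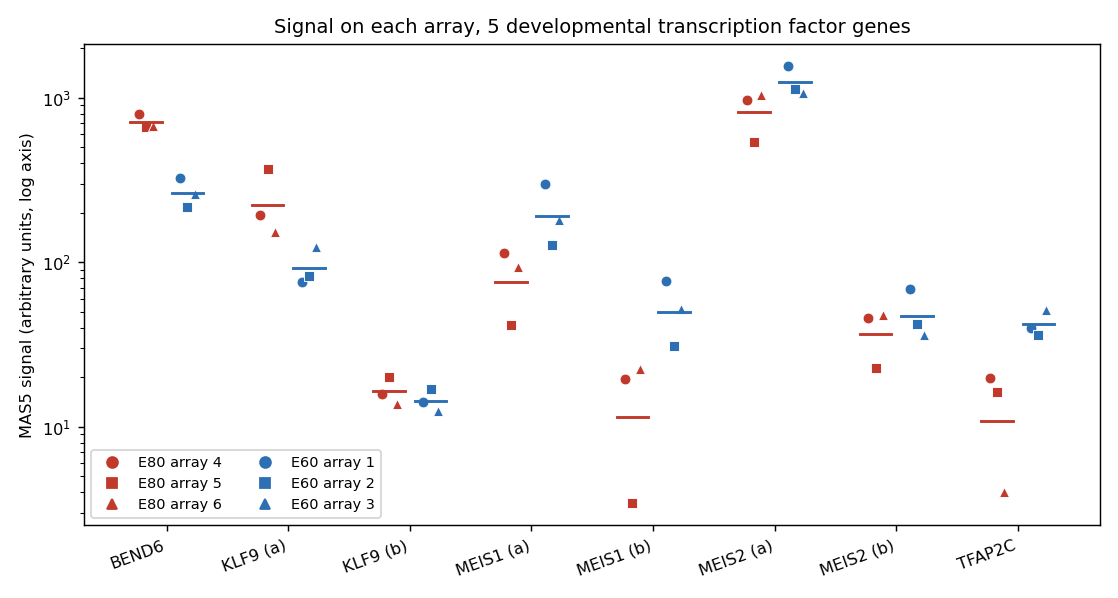
MAS5 signal on a log axis for every probe set of BEND6, KLF9, MEIS1, MEIS2 and TFAP2C on each of the 3 E80 arrays (red, left of each pair) and the 3 E60 arrays (blue, right); bars are the means of the log2 signals, and (a) and (b) number the probe sets of a gene from bright to dim. E80 array 5 (red square) is the lowest point of all 4 MEIS probe sets, and E80 array 6 (red triangle) holds the single low value of 4.007 for TFAP2C.

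All 6 probe sets of the SATB and CUX genes had the higher mean at E80 under each scaling, although none was past the test. SATB1 is a chromatin organiser that in mouse is needed for the maturation of cortical interneurons. Its brightest probe set had signals of 409.2, 467 and 340.8 at E80 and of 193.5, 208.1 and 309.4 at E60, without overlap. E60 array 3 was close to the lowest E80 array and far above the other E60 arrays. The log2 difference was 0.80 ± 0.19 (SE, 95% confidence interval 0.35 to 1.24, adjusted p = 0.0818). It was 1.00 with an adjusted p of 0.0376 without E60 array 3, and 0.0269 was the adjusted p with arrays weighted by quality. The other 3 SATB1 probe sets had log2 differences of 0.05 to 0.44, and on all of them the days overlapped, with E60 array 3 again the highest of its day. The summed interneuron signal was lowest within E80 on array 5 (3059), where SATB1 was highest, and within E60 it was 3074 on array 3 against 3590 and 2898. How far interneuron content bears on the SATB1 values was not tested. CUX1, a factor of upper layer neurons and their dendrites, had signals of 212 to 289.4 at E80 and 186.9 to 232.2 at E60, and its 2 probe sets both gave a log2 difference of 0.15. On the brighter one this was 0.0013 without E80 array 5 and 0.048 without E60 array 1.

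MEF2 factors couple neuronal activity to the making and pruning of synapses. The 2 probe sets of MEF2A were among the bright members. One had signals of 485.5, 441.4 and 449.2 at E80 and of 395.5, 421.2 and 299.6 at E60, without overlap (log2 difference 0.32, adjusted p = 0.274), and the difference was 0.17 without E60 array 3. The brighter one averaged 546.3 at E80 and 410.4 at E60 and overlapped (0.42, adjusted p = 0.351). MEF2D, a second member of this family, did not differ beyond its spread, with 283.5 at E80 and 285.1 at E60 on average (log2 difference 0.00, 95% confidence interval -0.33 to 0.33).

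The nuclear receptors were the largest group, with 22 probe sets of 10 genes, 11 with the higher and 11 with the lower mean at E80. NR2F1 (COUP-TFI), a regulator of cortical area patterning, was the brightest of them with 1127, 1144 and 816 at E80 and 844, 914.5 and 1205 at E60. The days overlapped fully (log2 difference 0.06, 95% confidence interval -0.34 to 0.45). For its relative NR2F2 (COUP-TFII), best known in mouse from interneurons of the caudal ganglionic eminence and from veins, all 4 probe sets had the lower mean at E80, by -0.45 to -0.86. The one without overlap had signals of 60.93, 97.78 and 62.02 at E80 and of 180.5, 107.9 and 112.5 at E60 (log2 difference -0.86 ± 0.26, adjusted p = 0.134). The brightest had 101, 159.3 and 108.7 at E80 and 286.6, 150.1 and 148.3 at E60, where E80 array 5 passed 2 of the E60 arrays (-0.62, adjusted p = 0.294). On both of these, E60 array 1 was far above the other arrays, and without it the differences were -0.62 and -0.31. Endothelial genes had a summed signal of 1211, 1389 and 1133 at E80 and 1442, 1457 and 1566 at E60 (9 of 11 measured). The order of these sums followed CLDN5, the brightest, with 674.3, 812.5 and 639.9 at E80 and 767.8, 839.2 and 900 at E60. The median log2 deviation of the 9 genes from their E60 means was -0.31, -0.09 and -0.38 at E80. At E60 it was 0.06, -0.05 and -0.07. This median was highest on array 5 within E80 and on array 1 within E60, as NR2F2 was. Their part in the NR2F2 values was not tested.

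NR4A2 (NURR1) marks subplate and deep layer neurons of the cortex and is also an immediate early gene. Its signal was 139, 32.35 and 63.61 at E80 and 221.3, 234.5 and 92.98 at E60. The spread within each day was more than 2-fold and the days overlapped (log2 difference -1.36 ± 0.53, adjusted p = 0.233), and with any single array left out it was -1.90 to -0.85, the smallest without E80 array 5. Of 7 immediate early genes measured none was called. DUSP1, a phosphatase and the brightest of them, had 453.9 to 526.3 at E80 and 554.1 to 615.5 at E60, whereas FOS, the activity-induced factor, had 54.06 to 83.06 at E80 and 36.68 to 38.79 at E60 (log2 0.80, adjusted p = 0.101), and neither overlapped. NR4A3, also an immediate early gene, overlapped, with an average of 180.7 at E80 and 155.4 at E60 on its brighter probe set. NR3C1, the glucocorticoid receptor, was read by 4 dim probe sets with differences of -1.67 to 0.27, all with overlap.

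Members listed for radial glia and ventricular progenitors were 8 genes of 22, of which 7 had the lower mean at E80 and none was called. The median log2 difference was -0.31 on the brightest probe set of each gene. With every array set to a common median, 5 of the 8 had the lower mean. HES1, the Notch target that keeps progenitors dividing, had signals of 64.83, 70.94 and 78.62 at E80 and of 84.87, 99.74 and 87.49 at E60, a small difference without overlap (log2 -0.34, adjusted p = 0.287). HEY2, a related repressor, had the lower mean at E80 on all 3 of its probe sets as deposited, with overlap on each. SOX9, which acts in radial glia and in the onset of gliogenesis, had 26.05, 11.12 and 52 at E80 and 58.57, 48.43 and 55.44 at E60. E80 array 6 lay among the E60 arrays while E80 array 5 was far below them (log2 -1.13, adjusted p = 0.28).

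ID proteins bind basic helix-loop-helix factors and block them, and are induced by BMP signalling. All 4 genes had the lower mean at E80 as deposited, by -0.03 to -0.51, but with every array set to a common median only 2 of 4 did, and all overlapped. ID1 had signals of 223.8 to 304.7 at E80 and 234.4 to 361.7 at E60, ID3 255.9 to 415.9 at E80 and 347.3 to 427.9 at E60, and ID4 206.6 to 266.7 at E80 and 169.5 to 281.5 at E60. ID2 was dimmer, at 19.16 to 38.19 at E80 and 16.3 to 79.33 at E60. The proneural gene NEUROD1, which drives neuronal differentiation, had 119.9, 200.9 and 76.05 at E80 and 216.6, 192.6 and 60.21 at E60, so that its spread within a day was far wider than the difference of the means (log2 -0.15, adjusted p = 0.91). TCF4, a partner of the proneural factors, was dim at 16.9 to 28.78 at E80 and 8.962 to 23.24 at E60.

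The NFI genes, which take part in the switch of radial glia to gliogenesis, were bright on all 7 of their probe sets. NFIB had signals of 935.3, 1238 and 985.6 at E80 and of 1112, 1215 and 1595 at E60 on its brighter probe set, with differences of -0.31 and -0.22 on its 2 probe sets and overlap on both. Without E60 array 3 the brighter one was at -0.15. NFIA had 455.2 to 731.8 at E80 and 524.4 to 693.8 at E60 on its brightest probe set (-0.07). NFIC had 63.7, 79.88 and 74.26 at E80 and 87.27, 96.86 and 103.1 at E60 on its dimmer probe set, without overlap (-0.40, adjusted p = 0.226), while its brighter probe set gave 0.05. Of the 12 genes listed for the glial lineage 8 were measured, 7 with the lower mean at E80, a count that was 4 of 8 with every array set to a common median. SOX10, which marks the oligodendrocyte lineage, was dim with 9.067 to 21.4 at E80 and 12.27 to 18.71 at E60. Oligodendrocyte lineage genes had a summed signal of 1258, 999 and 1752 at E80 and 981.8, 786.2 and 865.6 at E60 (8 of 12 measured, SOX10 among them). Of the 8, 6 had the higher mean at E80 (background over all probe sets 44.3%), with a median of 0.50 and none called. The days did not overlap for 3, all higher at E80 (MBP, OLIG2 and OPALIN), against a background of 9.25%. OPALIN was near the floor, with 5.768 to 18.13 at E80 and 1.16 to 3.313 at E60. The astrocyte and the oligodendrocyte sums were both higher on every E80 array than on any E60 array, and their part in the values of the glial members was not tested.

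**Figure D3:**
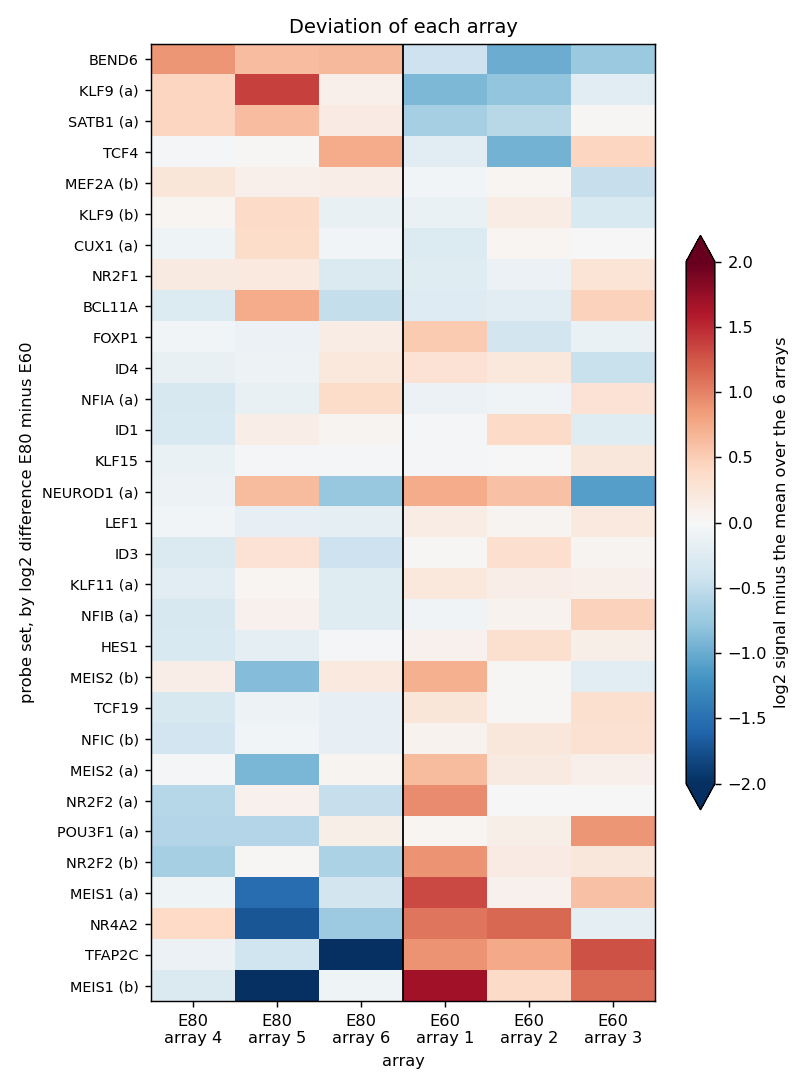
Log2 signal of each array minus the mean over the 6 arrays, for the 31 probe sets selected by rule, ordered by log2 difference (E80 minus E60); E80 arrays stand left of the line and E60 arrays right, and (a) and (b) number the probe sets of a gene from bright to dim. BEND6 in the top row varies less within each day than between the days. MEIS1, MEIS2 and NR4A2 are lowest on E80 array 5, TFAP2C is lowest on E80 array 6, and NEUROD1 varies as much within a day as between days.

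TCF and LEF symbols were carried by 11 probe sets, but they name proteins of several kinds. Of those that pair with beta-catenin in Wnt signalling, LEF1 had signals of 81.25, 75.38 and 74.33 at E80 and of 93.98, 87.16 and 96.51 at E60, a small difference without overlap (log2 -0.27, adjusted p = 0.36). TCF7L2 had 9.584, 10.12 and 14.54 at E80 and 33.13, 22.82 and 15.97 at E60 on its dimmer probe set, also without overlap (-1.03, adjusted p = 0.197), and overlapped on the brighter one (-0.37). TCF7L1 overlapped, with 62.49 at E80 and 72.72 at E60 on average. TCF19, a gene of proliferating cells, had 46.57 to 54.35 at E80 and 58.87 to 72.6 at E60 without overlap (-0.39, adjusted p = 0.292). TCF25 and TCFL5 are not Wnt effectors, and their bright probe sets differed by -0.05 to 0.13.

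Forkhead symbols were carried by 16 probe sets of 11 genes, none called. FOXN3, a repressor linked to cell cycle checkpoints, had signals of 233.3, 294.6 and 192.1 at E80 and of 396.3, 381.3 and 286.5 at E60, and the days overlapped by 1 array each (log2 -0.57, adjusted p = 0.155). FOXP1, a factor of cortical projection neurons, averaged 112.2 at E80 and 116.8 at E60 (log2 -0.01, 95% confidence interval -0.53 to 0.52). FOXO1, a target of insulin signalling, overlapped on both probe sets, as did FOXM1, which drives mitotic genes (32.45 at E80 and 31.75 at E60 on average). FOXRED1, read by 2 probe sets, is a mitochondrial oxidoreductase and no transcription factor, and it entered by its symbol only.

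Among the layer genes, BCL11A (CTIP1), a factor of deep layer neurons, had signals of 456.9, 926.5 and 397.9 at E80 and of 461.4, 478.6 and 761.3 at E60, where 1 array of each day stood well above the other arrays (log2 difference 0.00, 95% confidence interval -0.73 to 0.74). POU3F1 (OCT6), an upper layer and Schwann cell factor, had 286.8, 288.2 and 470 at E80 and 445, 469.2 and 794.2 at E60 on its bright probe set. The highest E80 array was just above the lowest 2 E60 arrays (log2 -0.70, adjusted p = 0.212), and the difference was -0.43 without E60 array 3. POU2F1, a broadly expressed relative, averaged 145.5 at E80 and 132.6 at E60. DLX5, a homeobox gene of GABAergic neurons from the ventral forebrain, had 104.7, 87.57 and 163 at E80 and 262.5, 127.7 and 126.8 at E60, again highest on E60 array 1 and lowest on E80 array 5 (log2 -0.50, adjusted p = 0.468). Of the 6 genes measured from the list for interneurons and ventral forebrain, 5 had the lower mean at E80 under each scaling, with a median of -0.55, and SATB1 was the exception.

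Several differences of more than 2-fold belonged to signals near the floor of the array. For 29 probe sets of 15 genes known mainly from other organs, such as the pituitary factor POU1F1, the lymphoid factor POU2F2, the adrenal and gonadal factor NR5A1, the erythroid factor KLF1 and the neural crest factor PAX3, every signal lay between 0.473 and 35.2, and none was brighter than 30% of the array. The 3 of them without overlap were POU2F2 with 12.4, 13.5 and 8.658 at E80 and 2.98, 1.683 and 6.693 at E60 (log2 1.81, adjusted p = 0.154), PAX3 with 13.07, 5.929 and 11.3 at E80 and 3.191, 2.39 and 2.915 at E60 (1.77, adjusted p = 0.109), and POU1F1 with 6.241, 12.13 and 4.147 at E80 and 4.135, 1.011 and 1.863 at E60 (1.78, adjusted p = 0.227). The other PAX3 probe set and the other 4 POU1F1 probe sets overlapped. At a signal this low the deposited values do not tell a weak transcript from background, since no detection calls were used here. BHLHE40, a clock and stress response gene just under the median signal, had 72.82, 45.67 and 136.5 at E80 and 32.12, 56.92 and 24.31 at E60 on its brighter probe set, with overlap (1.12, adjusted p = 0.232). ETV5, an FGF-induced factor, gave -0.36 without overlap on its dim probe set and 0.12 with overlap on its bright one, and ETV6 overlapped.

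More than 1 probe set was available for 34 of the 75 genes, and the sign of the difference was the same on all probe sets for 17 of them. Of the 9 genes with more than 1 probe set above the median signal, the sign was the same for 6, and the widest range among these 9 was 0.45, for NFIC. The 17 with 1 direction on every probe set as deposited included MEIS1, MEIS2, NR2F2, SATB1, MEF2A, NFIB, PBX2 and TFAP2B. The rest of them were CUX1, FOXRED1, HEY2, KLF9, KLF11, NEUROD1, NR4A3, PAX3 and TCF7L2. No background for such agreement was computed. By contrast FOXO3, an insulin-regulated factor, gave 0.21 on one dim probe set and -1.29 on the other, and the dim POU3F1 probe set gave 0.93 against -0.70 on the bright one.

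**Figure D4:**
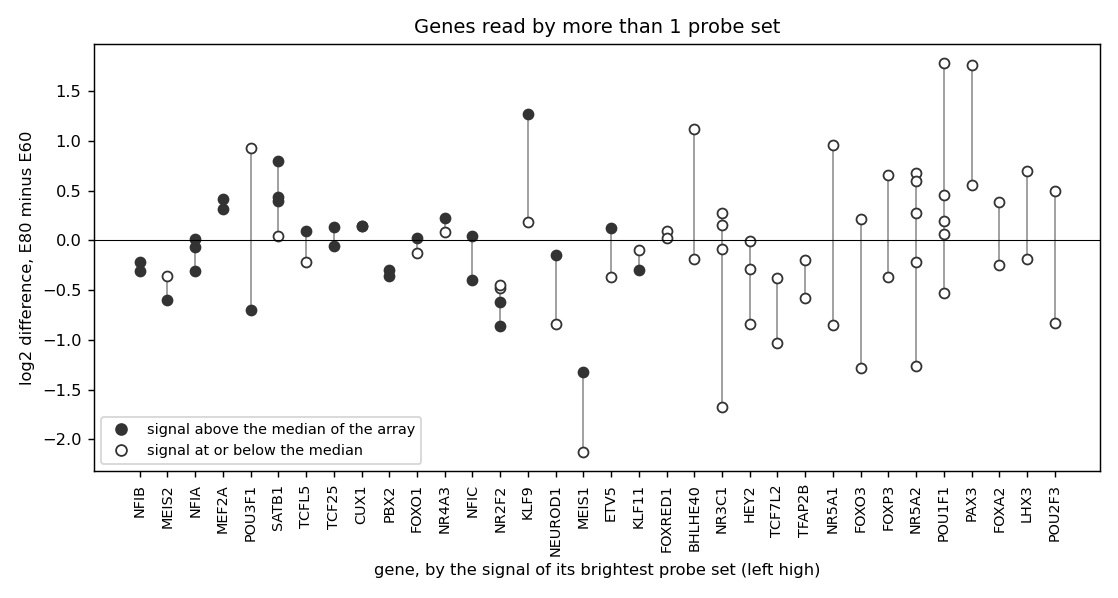
Log2 difference (E80 minus E60) of each probe set for the 34 genes read by more than 1, with genes ordered from left to right by the signal of their brightest probe set, filled points above the median signal of the array and open points at or below it. The filled points of a gene lie within 0.45 of each other, and every gene with a range of more than 1 has at least 1 open point.

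Pathway genes that act beside these factors were read from lists outside the rule, with 1 probe set per gene. In the Notch pathway, which controls HES1 and HEY2, 11 of 26 genes were measured and none was called. Of these, 5 had lower signals at E80 without overlap and 1 had higher signals, where the background over all probe sets is 14.4% lower and 9.25% higher, and the median was -0.25. RBPJ, the DNA-binding effector, had 377.9, 413.1 and 387 at E80 and 467.2, 652.9 and 567.4 at E60 (log2 -0.51, adjusted p = 0.0901), and the ligand JAG1 had 206.7, 148.4 and 221.6 at E80 and 339.4, 308.1 and 259.8 at E60 (-0.67, adjusted p = 0.0953). In the BMP pathway upstream of the ID genes, 8 of 18 genes were measured, none called, with a median of -0.27. Without overlap, 3 had lower signals at E80 and 1 higher, to be read against the same background. SMAD4, the shared signal transducer, had 198.3 to 217.5 at E80 and 257.3 to 301.6 at E60 (-0.46, adjusted p = 0.0729). In the Wnt pathway upstream of LEF1 and TCF7L2, 7 of 25 genes were measured, none called, with a median of -0.03. Here too 3 had lower signals at E80 without overlap and 1 higher. The secreted inhibitors differed in direction. SFRP1 had 367.2, 452.1 and 685.4 at E80 and 846.7, 891.5 and 1058 at E60 (-0.94, adjusted p = 0.0672). DKK3 had 1689, 1387 and 1522 at E80 and 1067, 1178 and 1327 at E60 (0.37, adjusted p = 0.137). DKK1, which was dim, also had the higher mean at E80 (0.81, with overlap). Of 49 other developmental transcription factors 13 were measured, and HOPX, a homeodomain protein known from human outer radial glia and from astrocytes, was the single one past the test. Its signal rose to 237.8, 261.3 and 311.5 at E80, against 153.2, 150.2 and 147.5 at E60 (log2 0.84, adjusted p = 0.0226).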

How the data were processed

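The authors hybridised biotinylated cRNA from 3 E80 and 3 E60 cortices, each to 1 Affymetrix Pig Genome Array, and deposited MAS5 signals, an intensity on a linear scale after scaling each array by 1 factor. MAS5 is named in the submitters' processing notes, with no version, and no detection calls were used. The middle mean of each array, with 2% cut at each end, was 150.02. Without the manufacturer's 124 control probe sets, 23999 were tested. Log2 signals were taken without a pseudocount, which leaves differences of dim probe sets wide, and the difference between the days was tested in R 4.3.3 with limma 3.58.1 (lmFit, then eBayes with a trend on intensity). All 6 arrays entered the fit, and p-values were adjusted over the whole array by Benjamini-Hochberg and called under 0.05. The study names no test for the arrays. The code was tested on simulated data. Nothing says how the embryos of a day were taken beyond the litter, and with 3 arrays a day the precision is limited by their number.

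Gene symbols came from the platform annotation, in which 10069 probe sets had 1 symbol, 198 several and 13732 none. No genome of the array's design was used, so that no coordinates or sequences are given. The members, lists and named genes were chosen with earlier results of these data known. Probe sets of BEND6, KLF9, MEIS1 and TFAP2C are among those the study itself selected on these arrays, for a consistent change between the days. Neither their direction nor a lack of overlap is therefore independent evidence. The same holds for several genes of the marker lists, among them CALB2, DRD2, RXRG, GFAP and MBP, which the study also selected. Named by rule were all probe sets of BEND6, KLF9, MEIS1, MEIS2 and TFAP2C, every member past the test, of the other members without overlap and with a mean above the array median in the higher day the up to 10 with the largest difference each way, and the up to 3 brightest genes of each role list, 31 probe sets in all. Other members were named after their values were seen. Alternatives were 2 other scalings, a filter that kept the brightest 66%, an offset of 32, other variance models, leaving out each array, and array weights, the last chosen after seeing the data.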

Additional observations from a re-analysis of the deposited data

How the results depend on the processing

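No paired analysis was possible because the labels number the arrays from 1 to 6 and the days share no number. The 467 probe sets called became 763 among the brightest 66% of probe sets, 1169 with array weights, 9 with an unmoderated test and 0 without an intensity trend (3706 at an unadjusted p under 0.05), and 1 to 367 with 1 array left out. With every array set to a common median, 311 were called higher and 108 lower, against 224 and 243 as deposited. The 1 member called higher became 3 with array weights (BEND6, KLF9 and SATB1), 0 without an intensity trend, 0 with the unmoderated test and 0 to 2 with 1 array left out, and no member was called lower under any of these. The adjusted p of BEND6 was 0.125 without a trend and 0.109 unmoderated. The median difference of the members was -0.08 to -0.01 with 1 array left out, -0.02 after quantile normalization, and -0.02 on the brightest probe set of each gene.

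Of 430 comparisons of a named probe set with an alternative, 394 kept the direction and the side of the threshold, 5 lost the call, all of BEND6, 3 gained it, and 28 changed sign, all of them for 7 uncalled genes with means near each other. After quantile normalization BCL11A was at -0.025, FOXP1 at 0.088, ID4 at 0.0021 and NR2F1 at -0.029. With array medians set to a common value FOXP1 was at 0.11, ID1 at 0.042, ID4 at 0.081 and NFIA at 0.045. With 1 array left out BCL11A ranged from -0.37 to 0.24, FOXP1 from -0.20 to 0.25, ID1 from -0.21 to 0.10, ID4 from -0.26 to 0.10, NEUROD1 from -0.74 to 0.19, NFIA from -0.27 to 0.072 and NR2F1 from -0.045 to 0.22. The cause was not tested. A signal at or below the array median, where standard errors were wider, limits what can be read for 73 of the 123 members. For 20 of the 123 the mean signal was under 10 at E80 and at E60.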

Other observations

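For 10 pairs of member probe sets the identifiers differ only in the ending that the array's design uses for probe orientation (S1 or A1), and the S1 probe set was the brighter one in 9 of them. The widest gap was that of NEUROD1, with means of 132.3 at E80 and 156.5 at E60 on S1, against 1.29 at E80 and 2.35 at E60 on A1. POU3F1 had 348.3 at E80 and 569.4 at E60 on S1, against 11.04 at E80 and 6.92 at E60 on A1. The exception was a pair of POU1F1, with 7.51 at E80 and 2.34 at E60 on S1, against 12.84 at E80 and 9.36 at E60 on A1. Which strand each probe set reads was not checked here.

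Among genes outside the families, CALB2, the calcium-binding protein calretinin of an interneuron class, was past the test with 778.4, 567.2 and 841.2 at E80 and 328.6, 308.2 and 212.2 at E60 (limma, log2 difference 1.37, adjusted p = 0.0218). The study had already selected this gene on these arrays, as calbindin 2, and its PCR went the same way. Like that of HOPX, the call of CALB2 did not hold without an intensity trend. BMPR1B, a BMP receptor, had 75.45, 146.7 and 89.44 at E80 and 69.63, 35.35 and 43.17 at E60, without overlap, and missed the threshold (1.07, adjusted p = 0.13). GLI1, a target of hedgehog signalling, had 5.641, 1.355 and 3.495 at E80 and 11.8, 9.821 and 11.52 at E60, without overlap at a signal near the floor (-1.88, adjusted p = 0.142).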
